A study of Homo sapiens with 4 samples.

Results

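Keratins are the intermediate filament proteins of epithelial cells. Each filament is built from equal amounts of a type I and a type II keratin, and a keratin without a partner is degraded. Simple epithelia, including those from which ovarian carcinomas arise, are marked by KRT8 with KRT18, usually together with KRT7 and KRT19. KRT20 is known from the gut and the urothelium, and pathologists read KRT7 with KRT20 to tell ovarian from colorectal carcinomas. KRT15 belongs to basal cells, and KRT6A and KRT17 to stressed or wounded stratified epithelia.

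To describe these transcripts when FOXK2 is targeted, 10 epithelial keratin genes were read by symbol from the RNA-seq counts of OVCAR5 cells, out of 56655 symbols. KRT7, KRT8, KRT6A and KRT80 are type II keratins (4 genes). KRT18, KRT19, KRT20, KRT15, KRT17 and KRT23 are type I keratins (6 genes). OVCAR5 is an established human ovarian cancer cell line, which the labels give as high grade serous and derived from ascites. Cells grown in RPMI medium with serum were stably transduced with lentivirus carrying a control short hairpin RNA (shCtrl, n = 2 libraries) or a hairpin against the forkhead transcription factor gene FOXK2 (shFOXK2, n = 2 libraries). Both groups therefore carried a viral vector and a hairpin, and no second hairpin or untransduced culture was analysed here. The design text calls the duplicates biological without saying what separated them, so p-values measure the spread between these libraries.

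The keratins did not move in a single direction. KRT80 and KRT20 fell and KRT23 rose in shFOXK2 cells, while the abundant KRT8, KRT18, KRT7 and KRT19 did not pass the test. Of the 10 genes, 8 had enough counts to be tested with the quasi-likelihood F test of edgeR (16417 genes tested, Benjamini-Hochberg adjusted p under 0.05). Among these 8, 1 rose, 2 fell and 5 did not pass. Over all tested genes 48.4% were called, 25.7% higher and 22.7% lower in shFOXK2. With so many genes called, 3 of 8 keratins is near the background and says nothing particular to them. The median log2 fold change was 0.01 over the 8 keratins and 0.04 over all tested genes.

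Library totals ran from 14284005 to 21950873 counts. A level of 3 counts, taken as the floor, was worth 0.134 to 0.211 CPM (the count scaled to the library total with TMM factors), a limit of counting error only. FOXK2 itself had 80.5 and 93.4 CPM in shCtrl and 76.3 and 59.5 CPM in shFOXK2. These groups did not overlap, as for 75.4% of all tested genes, and the difference did not pass (log2 fold change −0.36, SE 0.25, edgeR adjusted p = 0.257). With a smooth offset on the GC or A content of the transcripts in the fit, the FOXK2 value was −0.051 and −0.017. The median of all genes shifted by 0.21 and 0.25 in those fits. By qRT-PCR and Western blot, the paper reports lower FOXK2 mRNA and protein in OVCAR5 cells with hairpins against FOXK2. The epithelial marker EPCAM was present, at 94.4 to 105 CPM in shCtrl and 80.3 to 87.1 CPM in shFOXK2, whereas WT1, a usual marker of high grade serous carcinoma, had at most 2 reads in any library. Summed fibroblast markers stood at 18.9 to 20.5 CPM in shCtrl and 13.9 to 16.9 CPM in shFOXK2, and summed leukocyte markers at 18.2 to 22.7 and 9.35 to 9.72 CPM. COL1A1, PDGFRB and CD14 made up most of these sums. COL1A1, a fibrillar collagen, had 324 and 215 reads in shCtrl and 226 and 229 in shFOXK2 (log2 fold change 0.03, adjusted p = 0.951). PDGFRB, a fibroblast receptor, had 127 and 87 reads against 2 and 8 and fell (adjusted p = 3.32e-05), and CD14, a monocyte receptor, had 389 and 358 reads against 124 and 168 and fell (adjusted p = 0.00566). Among the other listed markers, COL1A2, COL3A1, DCN, PTPRC and CD3E had at most 3 counts in any library. LUM had 4 and 1 reads in shCtrl and 5 and 3 in shFOXK2, and LYZ had 14 and 4 against 0 and 2. THY1 had 0 and 0 reads in shCtrl and 6 and 6 in shFOXK2, and CD79A had 4 and 2 against 6 and 6. The part of these genes in the keratin values was not tested.

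Part of the KRT8 and KRT18 messages cannot be assigned to a single place by a short read. Of all 50-base windows of the canonical transcript, the length of these reads, 39.2% in KRT8 and 35.3% in KRT18 were also found in genes at other loci, 38 genes for KRT8 and 44 for KRT18, led by their pseudogenes KRT8P3 and KRT18P11. The share was 39.2% in KRT6A and 17.4% in KRT17, but 1.8% in KRT19, 1.1% in KRT7, 1.0% in KRT15, 0.4% in KRT80 and 0.0% in KRT20 and KRT23. HTSeq in its usual setting leaves out such reads, and the setting used was not given in the sources used here. The window below, in hg38, shows such a stretch from KRT18. Capitals mark the 50 bases of a read that would fit elsewhere, with 10 bases of flank on each side. The KRT18 stretch is chr12:52949373-52949442 on the plus strand (exon 1), found in 5 other genes.
KRT18: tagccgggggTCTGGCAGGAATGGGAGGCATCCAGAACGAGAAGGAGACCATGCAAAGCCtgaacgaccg
Levels of KRT8, KRT18, KRT6A and KRT17 are therefore uncertain, while no window of KRT20 or KRT23 was found at another locus. KRT8 and KRT18 also overlap by 525 exon bases on opposite strands. KRT7, KRT17 and KRT23 overlap antisense genes by 282, 307 and 186 exon bases. The strand setting of the counting was not given, so reads in those bases could have gone to either gene or to neither.

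KRT18, KRT8 and KRT19 stood at the top of the keratins once length was taken into account, and KRT17 and KRT6A at the bottom. Per kilobase of exon, in shCtrl, KRT18 stood at 351 ± 72.7 CPM, KRT8 at 341 ± 70.5 and KRT19 at 278 ± 62.1 (SD, n = 2), and these neighbours overlapped. KRT7 followed at 143 ± 31.5 and overlapped with KRT20 at 116 ± 9.15. KRT80 at 54.3 ± 7.43, KRT23 at 1.60 ± 0.353 and KRT15 at 0.207 ± 0.0169 were each apart from their neighbours. In shFOXK2 the order was the same, and the first 8 genes did not overlap in neighbouring places. With the length of the canonical transcript in place of all exons, KRT8 came first at 1314 ± 272 CPM per kilobase in shCtrl, because its exons of all transcripts together are much longer than its canonical transcript (6881 against 1784 bases). On that scale the means of KRT7 and KRT19 exchanged places between the groups. KRT19 was above KRT7 in shCtrl, where their libraries overlapped, and below it in shFOXK2, where they did not.

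**Figure D1:**
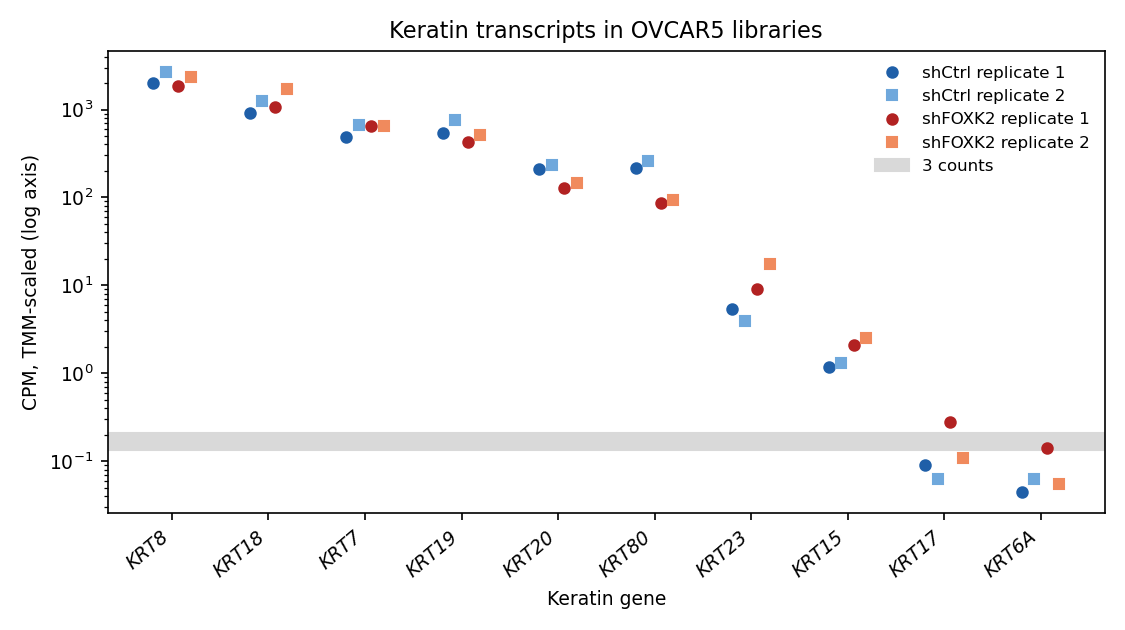
TMM-scaled CPM (log axis) of the 10 keratin genes in each of the 4 OVCAR5 libraries, with the grey band marking the level of 3 counts. CPM is not corrected for gene length. KRT8 lies between 1857 and 2688 CPM, and KRT80 and KRT20 sit lower in both shFOXK2 libraries. KRT6A had fewer than 3 counts in every library, and KRT17 had more than 3 only in shFOXK2 replicate 1.

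KRT8 and KRT18, the partners of the simple-epithelial filament, kept levels that overlapped between the groups. KRT8 (chr12:52897187-52949954, minus strand) had 2001 and 2688 CPM in shCtrl and 1857 and 2347 CPM in shFOXK2. The groups overlapped, and KRT8 differed by −0.16 in log2 fold change (SE 0.26, edgeR adjusted p = 0.651). Its sign turned when a smooth offset on the GC or A content of the transcripts was put into the fit, to 0.23 and 0.22, while the median of all genes shifted by 0.21 and 0.25. KRT18 (chr12:52948871-52952906, plus strand) had 919.8 and 1235 CPM in shCtrl and 1072 and 1702 CPM in shFOXK2. Only shFOXK2 replicate 2 stood above both controls. Its log2 fold change was 0.36 (SE 0.28, adjusted p = 0.301), it was −0.04 without shFOXK2 replicate 2, and it passed with the GC offset (0.75, adjusted p = 0.0465) and the A-content offset (0.72, adjusted p = 0.0468).

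KRT7 and KRT19, partners found in glandular and ductal epithelia, also did not pass. KRT7 (chr12:52232520-52252186, plus strand) had 481 and 659 CPM in shCtrl and 646 and 653 CPM in shFOXK2. The shFOXK2 values lay inside the control range, and the log2 fold change was 0.19 (SE 0.24, adjusted p = 0.55). The value was −0.057 when shCtrl replicate 1 was left out, and it passed with the GC offset (0.50, adjusted p = 0.0439) and the A-content offset (0.55, adjusted p = 0.0302). Those offsets shifted the median of all genes by 0.21 and 0.25, and KRT7 stood 0.29 and 0.3 above that shift. KRT19 (chr17:41523617-41528308, minus strand), a keratin that lacks most of the tail domain, had 546 and 752 CPM in shCtrl and 426 and 508 CPM in shFOXK2. Its groups did not overlap, as for 75.4% of all tested genes, but its change of −0.47 on the log2 scale (SE 0.25) missed the threshold at an adjusted p of 0.13. It passed without shCtrl replicate 1 (−0.72, adjusted p = 0.0264) and with no filter on low counts (−0.58, adjusted p = 0.0434).

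KRT20 and KRT80 fell. KRT80 (chr12:52168996-52192014, minus strand), a type II keratin found near cell junctions, had 4773 and 4171 reads in shCtrl and 1236 and 1700 in shFOXK2, or 214 and 259.8 CPM against 86.9 and 93.4 CPM. The shFOXK2 libraries lay far below both controls, at 38.1% of the control mean. Its log2 fold change was −1.39 (SE 0.24, adjusted p = 0.000377), and it ran from −1.56 to −1.32 when any library was left out. KRT20 (chr17:40875889-40885242, minus strand) had 4676 and 3762 reads in shCtrl and 1816 and 2685 in shFOXK2, or 209.6 and 234 CPM against 128 and 147.5 CPM. It stood at 62.0% of the control mean, with no overlap. Its log2 fold change was −0.69 (SE 0.23, adjusted p = 0.0243), and the call was lost without shFOXK2 replicate 1 (−0.62, adjusted p = 0.127). KRT20 has the highest A content of the 10 transcripts, 31.7%, against 20.4 to 29.0% in the others. With the A-content offset its log2 fold change was −1.52 (adjusted p = 0.00157), and the part of base composition in the result was not tested further.

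KRT23 rose. KRT23 (chr17:40922700-40937646, minus strand), a type I keratin, had 120 and 63 reads in shCtrl and 130 and 317 in shFOXK2, or 5.38 and 3.92 CPM against 9.14 and 17.4 CPM. Both shFOXK2 libraries lay above both controls, and replicate 2 was the higher. The mean was 2.85-fold that of shCtrl (log2 fold change 1.51, SE 0.37, adjusted p = 0.00429). Its size rested on 1 library. Leaving out shFOXK2 replicate 2 gave 0.94, and leaving out shFOXK2 replicate 1 gave 1.87, both past the threshold. KRT15 (chr17:41513745-41522529, minus strand), a keratin of basal cells, had 26 and 21 reads in shCtrl and 30 and 46 in shFOXK2. All 4 values were low, at 1.17 to 2.53 CPM, and higher in shFOXK2 without passing (log2 fold change 0.91, SE 0.40, adjusted p = 0.0726). KRT15 passed with a minimum of 10 counts in every library (0.96, adjusted p = 0.0393) and with the GC and A-content offsets (1.22 and 1.27, adjusted p = 0.0216 and 0.0198). Those offsets shifted the median of all genes by 0.21 and 0.25, and KRT15 stood 1.01 above that shift in each fit.

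KRT6A and KRT17, partners in the wound response of stratified epithelia, were scarcely detected. KRT6A (chr12:52487176-52493257, minus strand) had 1 and 1 reads in shCtrl and 2 and 1 in shFOXK2. KRT17 (chr17:41619442-41624842, minus strand) had 2 and 1 reads in shCtrl and 4 and 2 in shFOXK2. These genes were not tested, and no fold is given at the floor. Their paralogs KRT6B, KRT6C and KRT14 had no read in any library. KRT16, another partner of KRT6A, had 13 and 4 reads in shCtrl and 1 and 1 in shFOXK2, too few for the test.

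**Figure D2:**
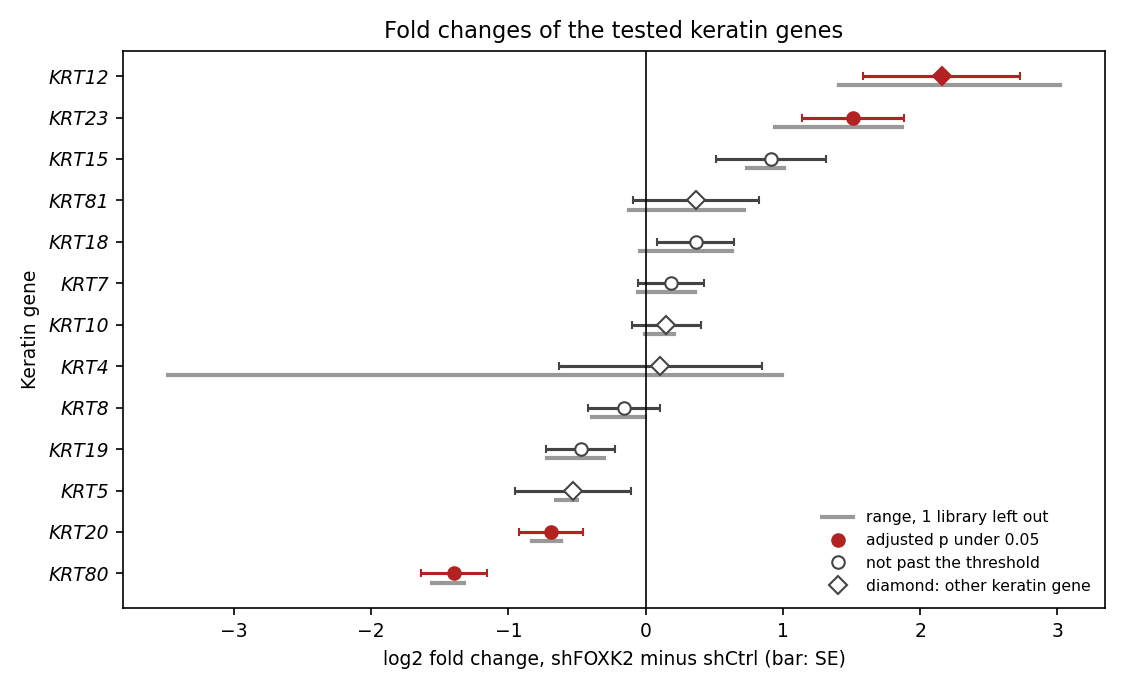
Log2 fold changes (shFOXK2 minus shCtrl) of the 13 tested keratin genes with bars of 1 SE, filled where the edgeR adjusted p was under 0.05, diamonds for keratins outside the 10, and grey lines for the range when 1 library was left out. KRT80 (−1.39) and KRT20 (−0.69) lie at the low end, KRT23 (1.51) and KRT12 (2.16) at the high end, and the grey line of KRT4 runs from −3.48 to 0.99.

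The total of keratin message did not separate the groups. The 10 genes took 0.445% and 0.557% of all counts in shCtrl and 0.421% and 0.562% in shFOXK2. KRT8, KRT18, KRT19 and KRT7 made up 90.2% and 91.4% of these reads in shCtrl and 94.6% and 95.2% in shFOXK2. KRT80 supplied 4.89% and 4.45% of them in shCtrl and 2.06% and 1.71% in shFOXK2. Type II over type I level, per kilobase of exon, came to 0.719 ± 0.00829 in shCtrl and 0.682 ± 0.0958 in shFOXK2 (SD, n = 2). With the length of the canonical transcript it came to 1.27 ± 0.00911 in shCtrl and 1.16 ± 0.164 in shFOXK2. The groups overlapped on both scales. Which type stood higher depended on the length used, so the ratio compares libraries and not the amounts of the types.

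Ratios between keratins of the same library do not depend on its depth, although partners that share reads are affected by the doubt on KRT8 and KRT18. They were chosen after values were seen, and with 2 libraries against 2 the exact permutation test allows no two-sided p below 0.333, so none is given. KRT8 reads per KRT18 read were 2.18 and 2.18 in shCtrl and 1.73 and 1.38 in shFOXK2. KRT7 reads per KRT19 read were 0.881 and 0.877 in shCtrl and 1.52 and 1.29 in shFOXK2. In both pairs the control libraries almost coincided and the shFOXK2 libraries lay apart from them. KRT20 reads per 1000 KRT8 reads were 105 and 87.2 in shCtrl and 68.7 and 62.9 in shFOXK2. KRT80 reads per 1000 KRT8 reads were 107 and 96.7 in shCtrl and 46.8 and 39.8 in shFOXK2. KRT23 reads per 1000 KRT18 reads were 5.85 and 3.18 in shCtrl and 8.53 and 10.2 in shFOXK2. Reads are not corrected for length here, so a ratio compares libraries and not the abundance of the genes.

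**Figure D3:**
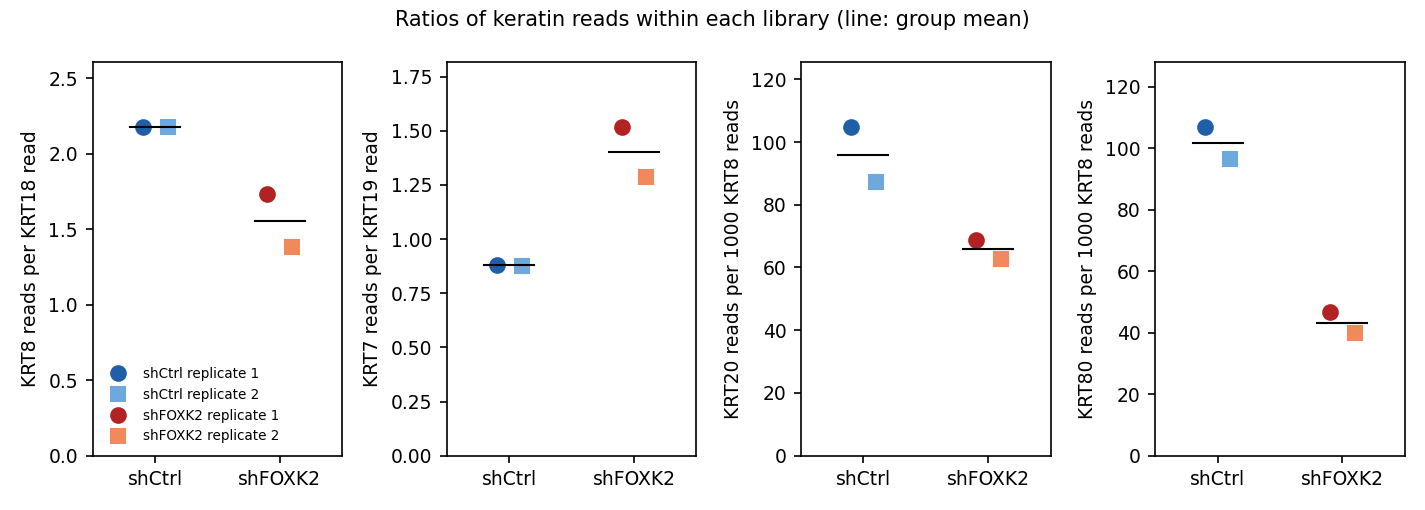
Ratios of keratin reads within each of the 4 libraries, with a line at the group mean, for KRT8 per KRT18, KRT7 per KRT19, KRT20 per 1000 KRT8 and KRT80 per 1000 KRT8 (linear axes from 0). The control points nearly coincide in the first and second panels, at 2.18 and 0.879. No ratio overlaps between the groups, but the ratios were chosen after values were seen and KRT8 enters all but the second panel. Levels of 75.4% of all tested genes did not overlap either.

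The keratin genes lie in 2 clusters, type II on chromosome 12 and type I on chromosome 17, except that KRT18, a type I gene, sits beside KRT8 in the chromosome 12 cluster. Each cluster holds 27 of the listed genes, over 757.1 kb and 920.9 kb, and 7 and 6 of them were tested. Neighbours did not move as a block. KRT80 and KRT7 are neighbours in the type II cluster, and KRT80 fell while KRT7 did not pass. In the type I cluster KRT20 fell and KRT23 rose, and the groups of KRT15 and KRT19 stood on opposite sides without passing. JUP, the plakoglobin gene that fell most among the desmosome genes, lies on the same arm at chr17:41754604-41786931, beyond the type I cluster.

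**Figure D4:**
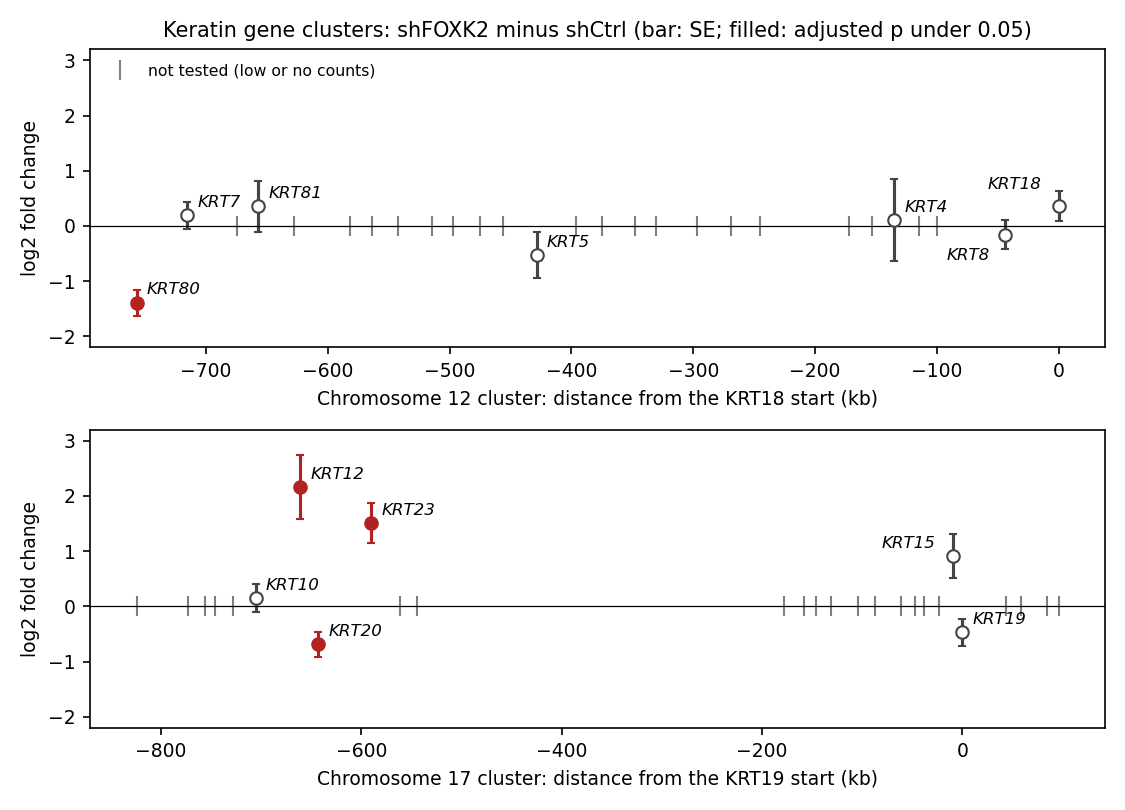
Log2 fold change (shFOXK2 minus shCtrl, bar 1 SE) of tested keratins against distance in kb from the KRT18 start (chromosome 12) or the KRT19 start (chromosome 17), filled where the edgeR adjusted p was under 0.05, with ticks for untested keratins. Called genes lie beside uncalled ones in both clusters, with KRT80 at −1.39 next to KRT7 at 0.19.

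Of 44 other keratins, 22 had no read in any library and 5 were tested, of which 1 rose, beside 25.7% of all tested genes. KRT12, the cornea keratin, had 11 and 3 reads in shCtrl and 14 and 40 in shFOXK2. It rose (log2 fold change 2.16, SE 0.57, edgeR adjusted p = 0.00725), but the call was lost without shCtrl replicate 2 (adjusted p = 0.074) or without shFOXK2 replicate 2 (adjusted p = 0.114), and the value was 3.02 without shCtrl replicate 1. KRT4, a keratin of wet stratified mucosa, had 119 and 114 reads in shCtrl and 8 and 229 in shFOXK2. The shFOXK2 libraries lay on opposite sides of the controls, and the log2 value of 0.11 (SE 0.74, adjusted p = 0.92) became −3.48 when shFOXK2 replicate 2 was left out and 0.99 when shFOXK2 replicate 1 was. KRT5, KRT10 and KRT81 had log2 fold changes of −0.53, 0.15 and 0.36, with adjusted p-values of 0.314, 0.65 and 0.539. KRT86, a hair keratin, had 14, 6, 5 and 5 reads and was not tested.

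Keratin filaments anchor at desmosomes, and 8 of 14 listed desmosome genes were tested. Of the tested ones, 2 fell, none rose and 6 did not pass (median log2 fold change −0.39). The shares over all tested genes were 22.7% lower and 25.7% higher. JUP, which links desmosomal cadherins to the plaque, had 7527 and 6230 reads in shCtrl and 314 and 587 in shFOXK2. Its level fell to 7.5% of the control mean (log2 fold change −3.74, SE 0.28, edgeR adjusted p = 1.1e-06). PERP, a desmosome-associated membrane protein, had 6497 and 4362 reads in shCtrl and 1324 and 2464 in shFOXK2, a fall of 1.30 on the log2 scale (adjusted p = 0.00092). DSP, the plakin that binds keratin at the plaque, had 4682 and 2178 reads in shCtrl and 1805 and 2147 in shFOXK2, and its log2 fold change of −0.50 did not pass (adjusted p = 0.126). DSP passed without shCtrl replicate 2 (−0.85, adjusted p = 0.0111), when 4 desmosome genes were lower, and with the A-content offset (−1.06, adjusted p = 0.00121).

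The plakins and keratin-binding genes moved in both directions, with 4 higher, 2 lower and 2 not past the threshold of 8 tested. Their median log2 fold change was 0.59, and the shares over all tested genes were 25.7% higher and 22.7% lower. DST, a linker of filaments to hemidesmosomes, had 1826 and 662 reads in shCtrl and 5108 and 7179 in shFOXK2, a rise of 2.61 on the log2 scale (adjusted p = 3.09e-05). Its transcript has 34.0% A, and the A-content offset lowered the value to 1.15 (adjusted p = 0.00178), under the 1.30 of EVPL in that fit. EVPL, a cornified-envelope plakin, rose by 0.96 (adjusted p = 0.00404), and TCHP, a keratin-filament binding protein, also rose by 0.96 (adjusted p = 0.0108, lost without shFOXK2 replicate 1 at 0.0608). EPPK1, the epiplakin that binds keratin, had 304 and 209 reads in shCtrl and 60 and 75 in shFOXK2, a fall of 1.68 (adjusted p = 0.000731). PPL, the partner of EVPL in the cornified envelope, had 2388 and 1856 reads against 625 and 1082, a fall of 1.11 (adjusted p = 0.0029). COL17A1, a hemidesmosomal collagen named after its values were seen, had 9 and 17 reads against 55 and 27, a rise of 1.90 (adjusted p = 0.0133) that was lost without shCtrl replicate 1 (1.28, adjusted p = 0.0972) or shFOXK2 replicate 1 (1.06, adjusted p = 0.102). PLEC, the widely expressed plectin, had a log2 fold change of 0.22 (adjusted p = 0.539), or −0.18 without shFOXK2 replicate 1.

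Of 10 tested non-keratin intermediate filament genes, 2 were called, beside 48.4% of all tested genes. VIM rose and PRPH, a neuronal filament gene named after its values were seen, fell (−1.67, adjusted p = 0.0464). The median log2 fold change of the 10 genes was −0.02. PRPH had 15 and 15 reads in shCtrl and 1 and 7 in shFOXK2, and its call was lost with DESeq2 (adjusted p = 0.215), with either offset, and without shCtrl replicate 1, shCtrl replicate 2 or shFOXK2 replicate 1 (adjusted p = 0.0993, 0.226 and 0.247). VIM, the filament protein of mesenchymal cells, had 552 and 702 CPM in shCtrl and 1148 and 1019 CPM in shFOXK2, with no overlap (log2 fold change 0.79, SE 0.24, adjusted p = 0.0161). The call was lost without shCtrl replicate 1 (adjusted p = 0.0799) or shFOXK2 replicate 1 (adjusted p = 0.0805). Of 17 cornification genes, 2 were tested. TGM1, a cross-linking enzyme of the cornified envelope named after its values were seen, had 18 and 10 reads in shCtrl and 28 and 30 in shFOXK2, a rise of 1.31 (adjusted p = 0.0241). DESeq2 did not call it (adjusted p = 0.134). CNFN, a cornified-envelope gene, had 87 and 66 reads in shCtrl and 22 and 40 in shFOXK2, a fall of 1.08 (adjusted p = 0.0282). Both calls were lost when shCtrl replicate 1, shCtrl replicate 2 or shFOXK2 replicate 1 was left out, with adjusted p-values of 0.0902, 0.195 and 0.063 for TGM1 and 0.0623, 0.0746 and 0.073 for CNFN.

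Among 16 tested epithelial regulators, 5 fell and 1 rose (median log2 fold change −0.59), beside 22.7% lower and 25.7% higher over all tested genes. EHF, an ETS factor of epithelial differentiation, had 1333 and 457 reads in shCtrl and 4 and 4 in shFOXK2 (log2 fold change −7.44, SE 0.52, adjusted p = 6.09e-07). The size of this fitted fold rests on 4 reads in each shFOXK2 library and is uncertain. ELF3, a related factor, had 4272 and 3588 reads in shCtrl and 358 and 1261 in shFOXK2, a fall of 2.13 (adjusted p = 0.000467). It was −3.07 when shFOXK2 replicate 2 was left out and −1.61 when replicate 1 was, past the threshold in both. FOXA1, a forkhead pioneer factor, fell by 1.47 (adjusted p = 0.00048), whereas FOXA2, its paralog, rose by 1.52 (adjusted p = 0.00105). GATA6 and GRHL3, the other factors that fell, were named after their values were seen. GATA6 had 872 and 691 reads in shCtrl and 273 and 354 in shFOXK2 (log2 fold change −1.09, edgeR adjusted p = 0.00361). GRHL3 had 17 and 16 reads in shCtrl and 2 and 2 in shFOXK2 (log2 fold change −2.75, edgeR adjusted p = 0.00337). Both shFOXK2 libraries lay under the floor of 3 counts for GRHL3, so the size of its fold is uncertain. Of the 9 epithelial markers 3 fell, beside 22.7% of all tested genes, and none rose. The keratins among these markers were not called. CDH1, the adherens-junction cadherin, had 459 and 260 reads in shCtrl and 13 and 24 in shFOXK2, a fall of 4.02 (adjusted p = 5.12e-06). CLDN3, a tight-junction claudin, fell by 1.96 (adjusted p = 0.000237), and CLDN4, another claudin, fell by 1.02 (adjusted p = 0.00601, lost without shFOXK2 replicate 2 at 0.0583). CLDN7 and EPCAM had log2 fold changes of −0.75 (adjusted p = 0.0981) and −0.25 (adjusted p = 0.393). CLDN7 ranged from −0.30 without shFOXK2 replicate 1 to −1.52 without shFOXK2 replicate 2, and passed in the latter fit (adjusted p = 0.00141), without shCtrl replicate 1 (adjusted p = 0.0312) and with no filter (adjusted p = 0.0295). In a bulk sample, fewer cells with a transcript and less of it per cell cannot be told apart, and this holds for every level given here.

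**Figure D5:**
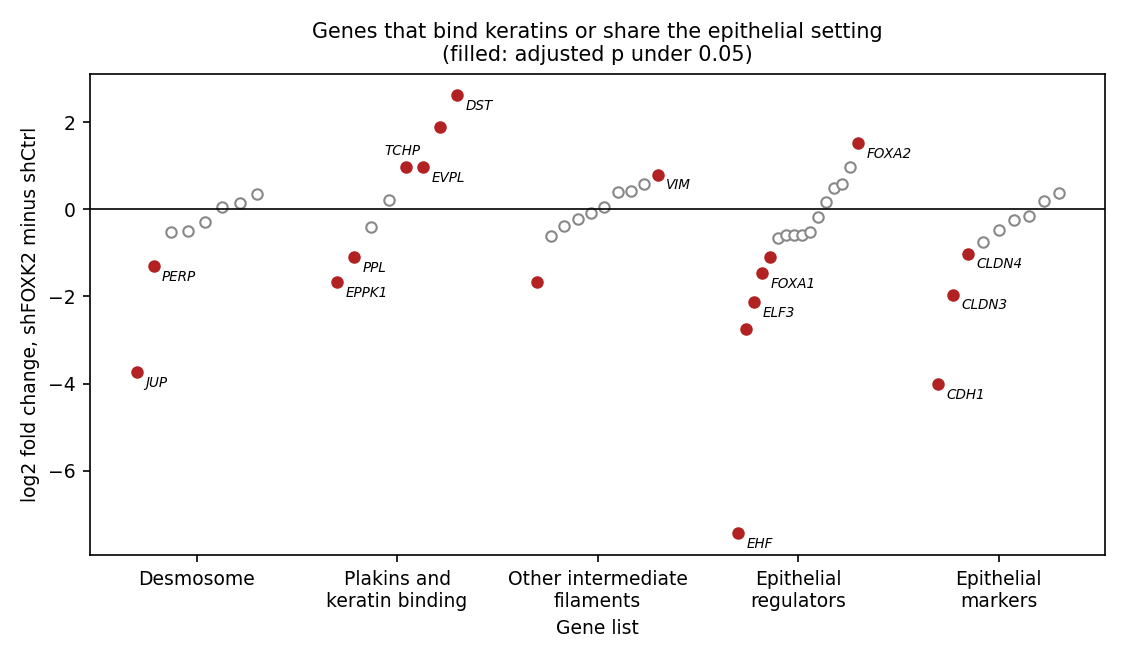
Log2 fold change (shFOXK2 minus shCtrl) of tested genes in 5 lists, filled where the edgeR adjusted p was under 0.05, each list ordered by value and only genes named by the rule labelled. JUP (−3.74), CDH1 (−4.02) and EHF (−7.44) fell furthest in their lists, and DST stands at 2.61, a value that the A-content offset lowered to 1.15.

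Promoter windows of 250 bases before to 50 bases after the RefSeq start (GRCh38.p14) were found for KRT8 and KRT20 among the 10 genes. Neither held the forkhead core GTAAACA, the AP-1 site TGACTCA, the GC box GGGCGG or the TATA box TATAAA on either strand. Of 35116 such windows, 3.4% held the forkhead core, 4.9% the AP-1 site, 45.0% the GC box and 11.5% the TATA box. The RefSeq start of KRT8 lay 21393 bases from the start of its canonical transcript, so its window is not the promoter of that transcript.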

How the data were processed

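RNA-seq was made from OVCAR5 cells with shCtrl or shFOXK2 (2 libraries each, grouped by sample title). Per the labels and the study's methods, the authors selected poly(A) RNA, aligned single-end 50-base reads to GRCh38 with STAR 2.5.2 and counted reads per gene with HTSeq. They deposited raw counts per symbol, without normalization. The strand setting and annotation were not given in the sources used here.

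Here, counts were filtered with filterByExpr, scaled by TMM and compared with the edgeR 4.0.16 quasi-likelihood F test (R 4.3.3), two-sided, Benjamini-Hochberg adjusted over 16417 genes. SE was the absolute log2 fold change over the root of F. Alternatives were DESeq2 1.42.0, other scalings and filters, replicate block, GC and A-content offsets (lowess span 0.2), glmTreat and leaving out each library. A crossed block was added after seeing the data.

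The keratins, lists and tests were chosen with earlier results of these data known. Named were the 10 keratins, FOXK2, paralogs KRT6B, KRT6C, KRT14 and KRT16, other keratins with 10 or more counts in a library, up to 3 largest rises and falls per list (adjusted p under 0.05, mean log2 CPM of at least 1) and all epithelial markers. Genes named outside this rule were chosen after their values were seen. On simulated counts (15859 genes, 200 changed) the test recovered 84.3% of changes of log2 2 and 21.4% of log2 1, with 3.6% false calls. The simulation used the spread fitted to these data and changed few genes, whereas 48.4% of tested genes were called in the real data. Its recovery and its share of false calls may therefore not hold here. Positions and base composition came from GENCODE v44. LORICRIN was not matched to a symbol. The planned comparison of protein identity was not run, and a further sequence window is not reported here.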

Additional observations from a re-analysis of the deposited data

How the results depend on the processing

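With 2 libraries a group, every p-value rests on variance shared between genes, and the size of a fold is uncertain where a group has only a few reads. Deviations of same-numbered libraries from their group means had r = −0.138 over 16417 genes. With 2 libraries a group, this value cannot show whether the libraries were made in pairs. With the replicate block, CLDN7 passed (−0.87, adjusted p = 0.0417), 7270 genes and 2 keratins were called, against 7940 and 3, and KRT20 was not past the threshold (adjusted p = 0.0597). The crossed replicate block called 8350 genes, 3 keratins and 1 other intermediate filament gene.

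With glmTreat, which asks for a log2 change above 1, 3386 genes, 0 keratins, 1 desmosome gene, 2 plakins, 0 other intermediate filament genes, 0 cornification genes and 3 epithelial regulators were called. KRT80 had an adjusted p of 0.0717 there. Of the keratins, 6 passed with the GC offset, the GC offset with replicate block and the A-content offset, 4 of them higher. Of all 16417 genes, these fits called 8688, 8584 and 8416, with 4864, 4792 and 4754 higher. Those offsets called 4, 4 and 5 desmosome genes and 1, 1 and 1 cornification genes. The GC offset called 2 other keratins and 4 other intermediate filament genes. Other keratins numbered 3 with no filter and 0 with at least 10 counts in every library, which left 3 of them to test. Other intermediate filament genes numbered 1 with library size alone, with the DESeq2 Wald test and with at least 10 counts in every library. DESeq2 called 0 cornification genes. Leaving out each library gave 6771 to 7775 genes, 2 to 4 keratins, 1 to 2 other keratins, 2 to 4 desmosome genes, 4 to 7 plakins, 0 to 2 other intermediate filament genes, 0 to 3 cornification genes and 6 to 8 regulators.

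Direction turned for KRT8 (0.23 with the GC offset, 0.21 with it and the replicate block, 0.22 with the A-content offset), for KRT7 (−0.057 without shCtrl replicate 1, up to 0.36 without others), for KRT18 (−0.04 without shFOXK2 replicate 2, up to 0.63), for KRT10 (−0.0062 without shCtrl replicate 1, up to 0.21), for PLEC (−0.18 without shFOXK2 replicate 1, up to 0.48), for COL1A1 (−0.077 with no filter, −0.18 to 0.16 with a library left out) and for KRT81 (−0.12 without shFOXK2 replicate 1, up to 0.72). KRT4 was −0.77 under the replicate block, −0.35 once GC was added to it, −0.63 under the crossed block, and −3.48 to 0.99 with a library left out (−0.13 without shCtrl replicate 1). Of these turned values, −3.48 alone, without shFOXK2 replicate 2, was past the threshold (adjusted p = 2.98e-09). The offsets moved the median of all genes by 0.21, 0.20 and 0.25, and no filter by −0.10 on the log2 scale. The summed keratin level differed by −0.07 on the log2 scale and by −0.03 with library size alone. The causes were not tested.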

Other observations

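Markers of Müllerian and of gut epithelium, which are read with KRT7 and KRT20 in pathology, were named here after their values were seen. Summed Müllerian markers stood at 33.3 to 37.0 CPM in shCtrl and 16.1 to 18.9 CPM in shFOXK2. PAX8, a Müllerian lineage factor, had 351 and 335 reads in shCtrl and 156 and 162 in shFOXK2 (log2 fold change −0.88, edgeR adjusted p = 0.0263), a call lost with the GC and A-content offsets and without shCtrl replicate 2 (adjusted p = 0.0911) or shFOXK2 replicate 2 (adjusted p = 0.113). MUC16, which encodes the CA125 antigen, had 397 and 145 reads in shCtrl and 0 and 8 in shFOXK2 (adjusted p = 2.45e-05), while MSLN, a mesothelial antigen, had 75 and 52 reads in shCtrl and 112 and 116 in shFOXK2 (log2 fold change 1.10, adjusted p = 0.0151, lost without shCtrl replicate 2 at 0.0708). WT1, SOX17 and ESR1 had at most 3 reads in any library.

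Summed gut markers stood at 227 to 255 CPM in shCtrl and 144 to 160 CPM in shFOXK2, nearly all of it KRT20. CDX2, an intestinal lineage factor, had 230 and 214 reads in shCtrl and 126 and 125 in shFOXK2, which did not pass (log2 fold change −0.59, adjusted p = 0.138). LGALS4, a gut galectin, had 3 and 1 reads in shCtrl and 15 and 16 in shFOXK2 (adjusted p = 0.00143). CDX1 had no read in any library. HNF4A, another listed gut marker, had 106 and 85 reads in shCtrl and 62 and 49 in shFOXK2. Its change did not pass (log2 fold change −0.52, edgeR adjusted p = 0.255). CDH17 (0.39, adjusted p = 0.508) and GUCY2C (0.05, adjusted p = 0.946) had at most 20 reads and did not pass. VIL1 had at most 7 reads and was not tested.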
